A study of Mus musculus with 8 samples.

Results

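Chemokines and their receptors were examined in kidneys of 8 adult male mice, 4 labelled CDH11-/- and 4 labelled CDH11+/+. All 8 mice were of a mixed background, labelled 129S1/Sv x C57BL/6, and all had been injured with aristolochic acid, a plant toxin of the proximal tubule. Unx/AngII injury is what the title of the series gives, whereas sample labels and design text give aristolochic acid; these are followed, and the mismatch was not resolved. The mice received 3 mg/kg on 5 consecutive days, and the kidneys were taken 2 weeks later, so no uninjured kidney stands beside the values. CDH11 is cadherin-11, an adhesion protein of mesenchymal cells; the labels do not say how its gene was disrupted or in which cells. The members are the protein-coding genes whose symbol is Ccl, Cxcl, Ccr or Cxcr with a number (and at most 1 letter after it), without Ccr2, together with Cx3cl1, Cx3cr1, Xcl1, Xcr1 and Ackr1 to Ackr4. Of 65 such genes, 58 had at least 10 counts over the 8 libraries and are the members, among 42256 genes listed. They comprise 39 ligands, 16 receptors and 3 atypical receptors. The members nearest the minimum were a Ccl27 copy with 14 counts, just inside, and Ccl21c with 7 counts, just outside. Ackr1, Cxcl15, Ccl27b and a Ccl21b copy had fewer, and Cxcr1 and Ccl26 had 0 counts.

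Chemokines are small secreted proteins that guide leukocytes along gradients held on cell surfaces and matrix. Their receptors couple to G proteins, and each receptor marks certain leukocytes: Ccr2 and Cx3cr1 monocytes and macrophages, Cxcr2 neutrophils, Cxcr3 activated T cells, Ccr7 migrating dendritic cells and naive T cells. Atypical receptors (Ackr) bind chemokines and clear them without this signal. In injured kidney, chemokines are made by tubule cells, endothelium, fibroblasts and the leukocytes themselves. In whole tissue, fewer cells of a type and less RNA per cell cannot be told apart.

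Sequencing gave 12966177 to 18539479 counts in each library labelled CDH11-/- and 10675309 to 13885009 in each labelled CDH11+/+. Cdh11 itself averaged 102.7 ± 14.1 CPM (read counts scaled to library size) in libraries labelled CDH11-/-, against 63.6 ± 8.14 CPM in those labelled CDH11+/+ (SD, n = 4 each), so it was not reduced under the mutant label (edgeR adjusted p = 0.0243 for the higher level). Groups are therefore named as labelled and every direction below is that of the labels. CDH11+/+ replicate 1 stood apart on the second principal component, at 41.0 where the other 7 libraries lay between -26.1 and 9.92. Kidney markers were present in all 8 libraries, with summed levels of 1718 to 3161 CPM in libraries labelled CDH11-/- and 1798 to 3136 CPM in libraries labelled CDH11+/+ for 4 genes of the thick ascending limb. The 10 proximal tubule genes summed to 1474 to 2280 CPM in libraries labelled CDH11-/- and 2128 to 4283 CPM in libraries labelled CDH11+/+, with 0 of 10 past the threshold. All 10 had negative log2 fold changes (median -0.77), 9 of them at an unadjusted p under 0.05; the part of proximal tubule content in the values below was not tested.

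No member passed the test between the labelled genotypes. Of the 58 members, 48 had enough counts to be tested (edgeR quasi-likelihood), and 0 had a Benjamini-Hochberg adjusted p under 0.05, where 0.719% of all 15852 genes tested did (0.372% higher and 0.347% lower). At an adjusted p under 0.1 there was 1 member, where 1.80% of all genes tested passed. An unadjusted p under 0.05 was reached by 7 of the 48 (14.6%), beside 14.1% of all genes tested. DESeq2 called 4 members (6.90% of 58), where it called 2.79% of all genes. Limma-voom called 4 that are not all the same (8.33% of 48), where it called 4.32%. The labels were fully separated in 5 of 48 members (10.4%), beside 7.33% of all genes tested. In 4 of these (Cx3cl1, Cxcl12 and Ccr9 among them) the libraries labelled CDH11-/- lay above, as in 3.59% of all genes, and in 1 (Cxcl1) below, as in 3.74%. The edgeR shares and those of separated labels are near the background. The DESeq2 and limma-voom shares lie above it but rest on 4 members each. None of these shares is taken as a result about chemokine genes. Among the 7 members below an unadjusted p of 0.05, 4 had higher means in the libraries labelled CDH11-/- (Cxcl12, Cx3cl1 and Ccr1 among them) and 3 had lower means (Cxcl1, Cxcl10 and Cxcl2). In that fit 6.62% of all genes had an unadjusted p under 0.05 with a higher value and 7.46% with a lower one.

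**Figure D1:**
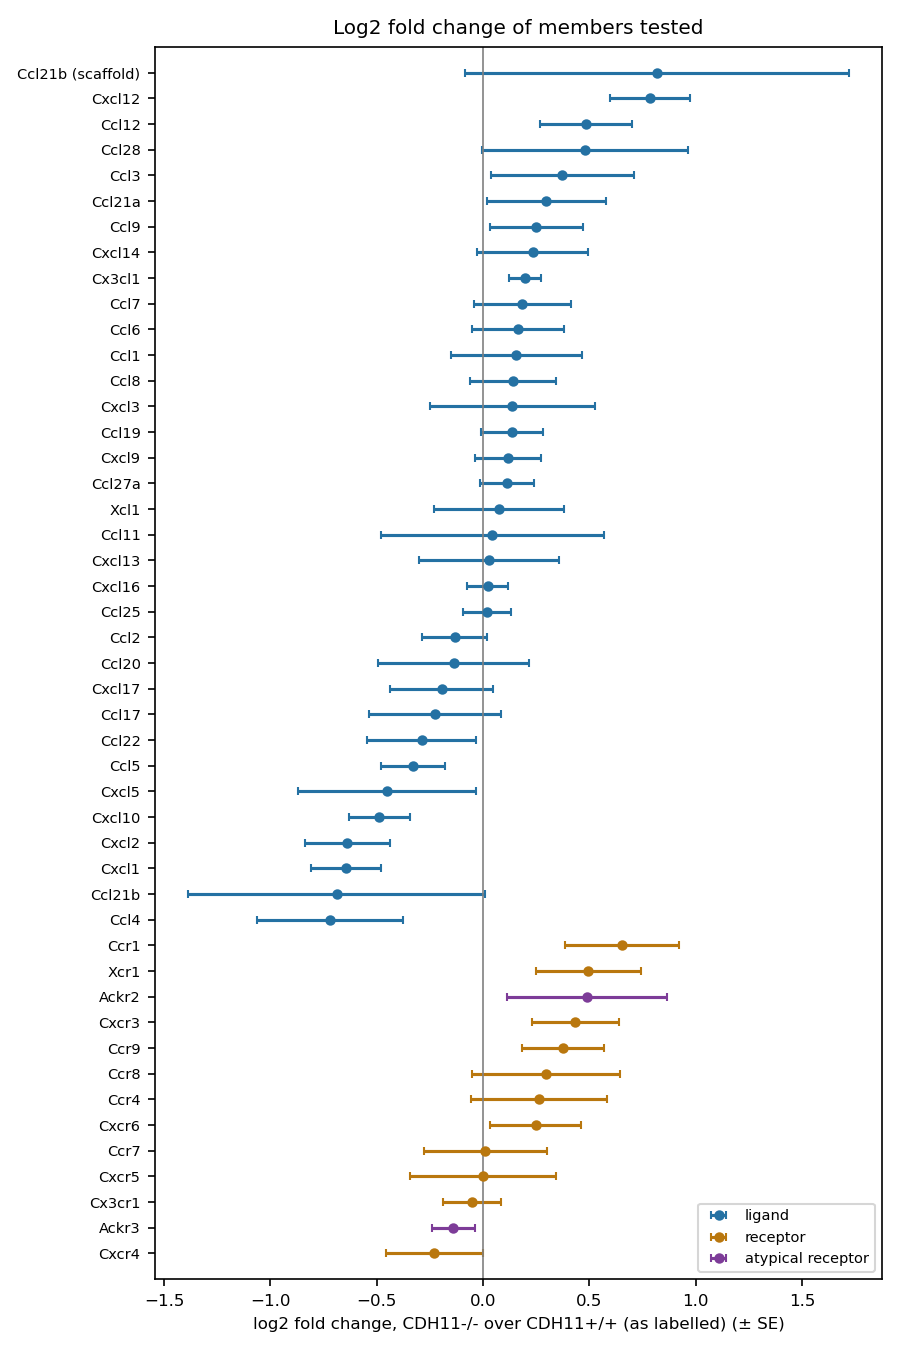
Log2 fold change (libraries labelled CDH11-/- over those labelled CDH11+/+) of 47 members tested, with bars of ± SE, receptors in the lower block and ligands in the upper block. Of the 34 ligands 22 lie right of 0, and of the 13 receptors of both kinds shown 10 do, while 0 members passed at an adjusted p under 0.05. Over all genes tested, 47.8% had a log2 fold change above 0.

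Levels differed far more between members than between the labelled genotypes. On the scale of CPM per kilobase of annotated exon, which allows genes to be compared, Ccl8 was the most abundant ligand, at 138.6 ± 26.3 in libraries labelled CDH11-/- and 125.9 ± 31.2 in libraries labelled CDH11+/+ (SD, n = 4 each). Mouse Ccl8 is a ligand of Ccr8. Cxcl16, a membrane-bound ligand of Cxcr6, followed at 89.1 ± 10.2 in libraries labelled CDH11-/- and 87.8 ± 9.21 in libraries labelled CDH11+/+. Next came Cx3cl1, the membrane-bound ligand of Cx3cr1, at 69.6 ± 4.84 in libraries labelled CDH11-/- and 60.8 ± 4.69 in libraries labelled CDH11+/+. Ccl5, which T cells and macrophages make, averaged 48.5 ± 9.24 in libraries labelled CDH11-/- and 60.7 ± 10 in libraries labelled CDH11+/+ (CPM per kilobase). Over single libraries Ccl8 spanned 91.7 to 169.6, Cxcl16 76.63 to 101.4, Cx3cl1 53.8 to 76.52 and Ccl5 39.4 to 74.5. The range of Ccl8 thus overlaps that of Cxcl16, and the range of Cx3cl1 that of Ccl5. The lowest library of Cxcl16 lies just above the highest of Cx3cl1. Compared within each library, Ccl8 was above Cxcl16 in every library, whereas Cx3cl1 was not above Ccl5 in every library. Cxcl14 (48.4), Ccl6 (47.8), Cxcl10 (39.3) and Cxcl9 (30.3, means over 8 libraries) came next, each overlapping its neighbours. Library by library, Ccl8 had 73.2, 54.0, 69.4 and 86.7 CPM in replicates 1 to 4 labelled CDH11-/-, against 80.0, 54.9, 46.8 and 75.5 CPM in replicates 1 to 4 labelled CDH11+/+. Cxcl16 had 275.8, 231.5, 263.6 and 306.2 CPM under the mutant label, against 301.9, 248.1, 239.8 and 271.3 CPM under the wild-type label. For both ligands the ranges of the labels lie over each other.

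Among receptors Cx3cr1 was the most abundant, at 29.2 ± 3.36 CPM per kilobase in libraries labelled CDH11-/- and 30.2 ± 6.10 in libraries labelled CDH11+/+. Cxcr4, the receptor of Cxcl12 on most leukocytes, stood at 18.5 ± 6.19 in libraries labelled CDH11-/- and 21.6 ± 3.38 in libraries labelled CDH11+/+. Ccr1, on monocytes and neutrophils, averaged 14.5 ± 2.72 in libraries labelled CDH11-/- and 9.28 ± 3.66 in libraries labelled CDH11+/+. Ackr3, which scavenges Cxcl12, averaged 8.47 ± 0.564 in libraries labelled CDH11-/- and 9.33 ± 1.25 in libraries labelled CDH11+/+ (SD, n = 4 each throughout). Cxcr6 (6.61), Cxcr3 (6.45) and Ccr7 (4.60, means over 8 libraries) followed. Cxcr4 had 23.0, 29.0, 32.2 and 49.2 CPM in replicates 1 to 4 labelled CDH11-/-, against 45.9, 37.2, 31.6 and 41.6 CPM in replicates 1 to 4 labelled CDH11+/+, the highest and the lowest library both being labelled CDH11-/-. Ackr3 had 27.1, 29.6, 30.3 and 26.4 CPM under the mutant label, against 26.1, 30.1, 36.0 and 32.8 CPM under the wild-type label, with overlap. Near the low end lay Cxcr2, the receptor of Cxcl1 and Cxcl2 on neutrophils, with 6 counts in the 4 libraries labelled CDH11-/- and 13 counts in the 4 labelled CDH11+/+.

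**Figure D2:**
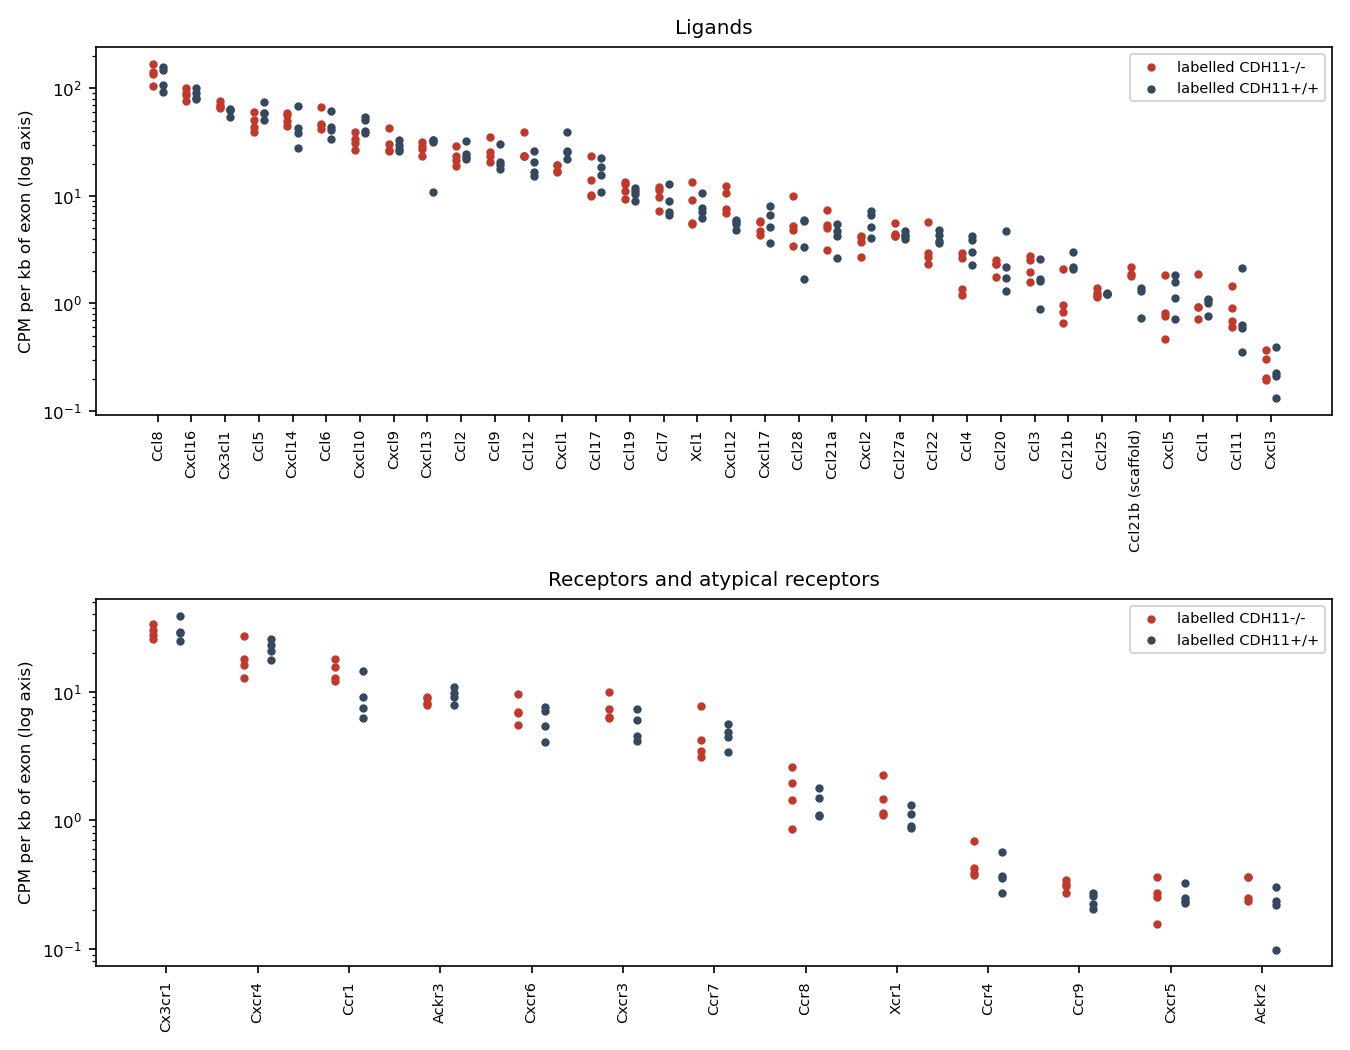
CPM per kilobase of exon (log axis) of the 34 ligands (upper panel) and 13 receptors (lower panel) shown, with a point per library (values of 0 cannot be drawn), red for libraries labelled CDH11-/- and dark for those labelled CDH11+/+. Ccl8 leads the ligands and Cx3cr1 the receptors, and the points of both labels lie together for most members.

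The neutrophil-attracting ligands lie side by side on chromosome 5 (90759360 to 90905938, GRCm38). Cxcl1 (ENSMUSG00000029380, 90891241 to 90893115, plus strand) had 31.6, 31.5, 36.3 and 36.4 CPM in replicates 1 to 4 labelled CDH11-/-, against 48.4, 73.5, 40.9 and 49.4 CPM in replicates 1 to 4 labelled CDH11+/+. All 4 libraries labelled CDH11-/- lay below every library labelled CDH11+/+. The log2 fold change was -0.64 ± 0.17 (SE, edgeR adjusted p = 0.137). Cxcl2 (90903871 to 90905938, plus strand) had 5.64, 7.69, 8.55 and 8.79 CPM in replicates 1 to 4 labelled CDH11-/-, against 13.8, 15.04, 8.31 and 10.6 CPM in replicates 1 to 4 labelled CDH11+/+. Only CDH11+/+ replicate 3 lay within the range of the libraries labelled CDH11-/-. Its log2 fold change was -0.64 ± 0.20 (SE, edgeR adjusted p = 0.189). The related Cxcl5 and Cxcl3 were scarce, at 1.81 ± 1.10 and 0.931 ± 0.294 CPM in the libraries labelled CDH11-/-, against 2.45 ± 0.922 and 0.840 ± 0.380 CPM in those labelled CDH11+/+. Their log2 fold changes were -0.45 ± 0.42 (Cxcl5) and 0.14 ± 0.39 (Cxcl3, SE), each within or near its own error.

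Of the neutrophil markers, Csf3r and Mmp9, which other leukocytes also make, carried most of the signal. The list of 10 summed to 29.2 to 38.1 CPM in libraries labelled CDH11-/- and 25.5 to 36.6 CPM in libraries labelled CDH11+/+. S100a8 averaged 0.506 ± 0.127 CPM in libraries labelled CDH11-/- and 0.317 ± 0.364 CPM in libraries labelled CDH11+/+ (SD, n = 4 each), and Ngp was at 0 in all 8 libraries. Of the 4 neutrophil genes tested 0 passed; Mmp9 came closest, at 0.98 ± 0.23 (log2, SE, edgeR adjusted p = 0.0819). The list of 9 injured tubule genes summed to 13670 to 14630 CPM in the libraries labelled CDH11-/-, below the 14980 to 16810 CPM of those labelled CDH11+/+. Most of that sum was Spp1, and without it the sums overlapped, at 2873 to 3719 CPM in libraries labelled CDH11-/- and 3201 to 4070 CPM in libraries labelled CDH11+/+. Of the 9 genes 4 had positive log2 fold changes (median -0.02) and 0 passed; the part of tubule cells in the Cxcl1 values was not tested.

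The interferon-induced ligands Cxcl9 and Cxcl10, which attract Cxcr3-bearing T cells, are neighbours on chromosome 5 (92321347 to 92348889). Cxcl10 (92346638 to 92348889, minus strand) had 76.0, 70.1, 60.2 and 89.0 CPM in replicates 1 to 4 labelled CDH11-/-, against 87.0, 121.5, 90.1 and 114.9 CPM in replicates 1 to 4 labelled CDH11+/+. The groups overlapped only through CDH11-/- replicate 4 and CDH11+/+ replicate 1. The log2 fold change was -0.49 ± 0.14 (SE, edgeR adjusted p = 0.185). Exons of Cxcl10 overlap those of Art3 on the other strand, as exons of Cxcl16, Ccl25, Ccl27a, Xcl1, Ackr4, Cx3cr1, Cxcr5 and Ccr9 overlap other genes, whose reads may not be told apart. Cxcl9 had 91.4, 79.6, 80.8 and 128.3 CPM in the libraries labelled CDH11-/-, against 82.0, 78.3, 99.5 and 90.2 CPM in those labelled CDH11+/+. These ranges coincide, and the log2 difference was 0.12 ± 0.16 (SE, edgeR adjusted p = 0.787). Their receptor Cxcr3 averaged 12.85 ± 2.90 CPM in libraries labelled CDH11-/- and 9.47 ± 2.51 CPM in libraries labelled CDH11+/+. That is a log2 difference of 0.43 ± 0.20 (SE, edgeR adjusted p = 0.369). Cxcl11, the remaining ligand of that receptor, is annotated as a polymorphic pseudogene and is no member; its log2 fold change was -0.53 ± 0.19 (SE, edgeR adjusted p = 0.249).

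The sequences before the starts of these chromosome 5 ligands are shown because NF-kB, the factor that drives chemokine genes in inflammation, is known to act through sites close to the start. Each runs 5′ to 3′ on the strand of its gene over the 250 bases before the start (RefSeq, GRCm38.p6), with matches to the NF-kB consensus in capitals and, in Cxcl10, also the match to the core of the interferon-stimulated response element (GAAA, any pair of bases, then GAAA). Cxcl1 is at chr5:90890995-90891244 and Cxcl2 at chr5:90903649-90903898, Cxcl3 is at chr5:90785851-90786100 (all plus strand) and Cxcl10 at chr5:92348890-92349139 (minus strand).
Cxcl1: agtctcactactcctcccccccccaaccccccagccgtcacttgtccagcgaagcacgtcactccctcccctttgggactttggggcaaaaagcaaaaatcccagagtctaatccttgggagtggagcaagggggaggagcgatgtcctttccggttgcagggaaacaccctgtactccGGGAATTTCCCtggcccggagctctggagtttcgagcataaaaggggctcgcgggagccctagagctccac
Cxcl2: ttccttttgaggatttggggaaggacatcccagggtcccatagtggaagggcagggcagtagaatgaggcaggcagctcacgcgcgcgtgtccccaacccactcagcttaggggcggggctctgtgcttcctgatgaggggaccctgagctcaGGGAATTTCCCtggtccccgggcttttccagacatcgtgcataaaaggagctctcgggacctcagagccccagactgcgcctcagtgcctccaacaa
Cxcl3: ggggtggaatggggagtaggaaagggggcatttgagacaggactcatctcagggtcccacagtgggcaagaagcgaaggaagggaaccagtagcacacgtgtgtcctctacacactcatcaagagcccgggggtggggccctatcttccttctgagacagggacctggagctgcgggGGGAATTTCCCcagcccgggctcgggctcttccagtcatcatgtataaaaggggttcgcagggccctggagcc
Cxcl10: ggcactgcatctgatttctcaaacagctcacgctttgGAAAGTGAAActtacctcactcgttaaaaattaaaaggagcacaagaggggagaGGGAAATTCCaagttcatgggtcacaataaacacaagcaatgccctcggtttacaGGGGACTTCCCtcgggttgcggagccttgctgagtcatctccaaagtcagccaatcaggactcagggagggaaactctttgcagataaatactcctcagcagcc

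The Cxcl1, Cxcl2 and Cxcl3 windows hold the same run of 11 letters, in which a pair of overlapping NF-kB matches was found. It begins 71 bases before the RefSeq start in Cxcl1, 97 in Cxcl2 and 73 in Cxcl3. The positions given earlier are from GENCODE, and by them Cxcl1 (90891241) and Cxcl2 (90903871) start inside these windows. Distances from the GENCODE starts would therefore differ. In Cxcl10 the consensus matches begin 159, 104 and 103 bases before the start, the last pair overlapping, and the interferon element begins 213 bases before it. With both strands searched, 11 of the 40 members in the sequence table held an NF-kB match (Ackr2, Ccl1, Ccl9, Ccl20, Ccr1, Ccr3, Ccr6, Cxcl1, Cxcl2, Cxcl3 and Cxcl10), and 7.25% of 32851 promoters of the same length did. The 40 members have 44 promoters, and a member was counted if any of its promoters matched. Counts of members and shares of single promoters are thus in different units. The interferon element was in 3 of the 40 (Ccl19, Cxcl10 and Cxcl14) and in 2.98% of all promoters. A match describes letters only, and the part of such sites in the log2 fold changes was not tested.

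Of the stromal and lymphoid ligands, Cxcl12 had the smallest p. It retains progenitors and leukocytes through Cxcr4 and is made by fibroblasts and endothelium. Cxcl12 (ENSMUSG00000061353, chromosome 6, 117168535 to 117181367, plus strand) had 62.1, 101.4, 87.8 and 56.2 CPM in replicates 1 to 4 labelled CDH11-/-, against 47.0, 39.3, 48.3 and 44.3 CPM in replicates 1 to 4 labelled CDH11+/+. The groups did not overlap, and the libraries labelled CDH11-/- were themselves spread, replicates 2 and 3 being high. Its log2 fold change was 0.78 ± 0.19 (SE, edgeR adjusted p = 0.121). Fibroblast and mural markers, a list of 9 genes, summed to 1422 to 1996 CPM in libraries labelled CDH11-/- and 1220 to 1742 CPM in libraries labelled CDH11+/+, with 0 of 9 past the threshold. Of these 9 genes, 8 had positive log2 fold changes (median 0.43). An unadjusted p under 0.05 with a higher value was reached by 5 of them (edgeR), beside 6.62% of all genes tested. The 8 blood endothelial markers summed to 543.8 to 590.2 CPM in the libraries labelled CDH11-/-, above the 401.5 to 538.8 CPM of those labelled CDH11+/+. Of these markers 0 passed, but all 8 had positive log2 fold changes (median 0.29), 6 of them at an unadjusted p under 0.05 (edgeR). The part of the cells of either list in the Cxcl12 values was not tested.

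The other ligands of this kind showed no such separation. Cxcl13, which draws B cells, averaged 32.0 ± 3.76 CPM in libraries labelled CDH11-/- and 31.4 ± 12.6 CPM in libraries labelled CDH11+/+ (SD, n = 4 each). Ccl19 and Ccl21a, the ligands of Ccr7, had log2 fold changes of 0.14 ± 0.14 and 0.30 ± 0.28 (SE). Ccl21a, Ccl21b, Ccl19 and Ccl27 have near-identical copies on unplaced scaffolds, 5 of which are members, so their reads can be split between copies in the authors' counting. The scaffold copy of Ccl21b had 24, 24, 36 and 0 counts in replicates 1 to 4 labelled CDH11-/-, against 13, 15, 8 and 0 counts in replicates 1 to 4 labelled CDH11+/+. Replicate 4 of each label thus had none, and the fitted values of the Ccl21b copies (0.82 ± 0.90 for this copy and -0.69 ± 0.70 for that on chromosome 4, log2, SE) are uncertain.

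Of the receptors of macrophages and monocytes, Ccr1 binds Ccl3, Ccl5, Ccl6 and Ccl9. Ccr1 (chromosome 9, 123962124 to 123968692, minus strand) had 35.9, 34.0, 44.0 and 50.8 CPM in replicates 1 to 4 labelled CDH11-/-, against 41.1, 17.6, 20.97 and 25.6 CPM in replicates 1 to 4 labelled CDH11+/+. Here CDH11+/+ replicate 1 lay among the libraries labelled CDH11-/- and the other 3 lay below all of them. The log2 fold change of Ccr1 was 0.65 ± 0.27 (SE, edgeR adjusted p = 0.340).

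Without CDH11+/+ replicate 1, Ccr1 passed, at a log2 fold change of 0.96 (edgeR, adjusted p = 0.0191), in a fit where 2 members and 6.25% of all genes passed. That library was also high in the 14 macrophage markers, which summed to 5327 CPM in it and to 3726 to 4059 CPM in the other 3 labelled CDH11+/+, while those labelled CDH11-/- lay between 4368 and 5547 CPM. All 14 markers had positive log2 fold changes (median 0.17), and 1, Mertk, which engulfs dying cells, rose by a log2 value of 0.50 ± 0.08 (SE, edgeR adjusted p = 0.0242). Cd14 had the next smallest p of the list and did not pass, at 0.96 ± 0.18 (log2, SE, edgeR adjusted p = 0.0577), without overlap of the labels. The defining markers Adgre1 and Csf1r averaged 102.2 ± 6.89 and 368.2 ± 28.0 CPM in the libraries labelled CDH11-/-, against 94.2 ± 23.7 and 324.9 ± 52.0 CPM in those labelled CDH11+/+ (SD, n = 4 each). Neither passed (edgeR adjusted p = 0.779 and 0.473), and the part of macrophage number in the Ccr1 values was not tested. Ccr2, a monocyte receptor that is no member, averaged 142.5 ± 27.8 CPM in libraries labelled CDH11-/- and 79.3 ± 15.6 CPM in libraries labelled CDH11+/+ (log2 fold change 0.85 ± 0.17, SE, edgeR adjusted p = 0.0740). Cx3cr1, a marker of resident kidney macrophages, had 150.7, 115.4, 124.5 and 134.8 CPM in the libraries labelled CDH11-/-, against 175.4, 127.9, 111.2 and 129.9 CPM in those labelled CDH11+/+. CDH11+/+ replicate 1 was the highest of these 8, and the log2 fold change was -0.05 ± 0.14 (SE, edgeR adjusted p = 0.906).

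**Figure D3:**
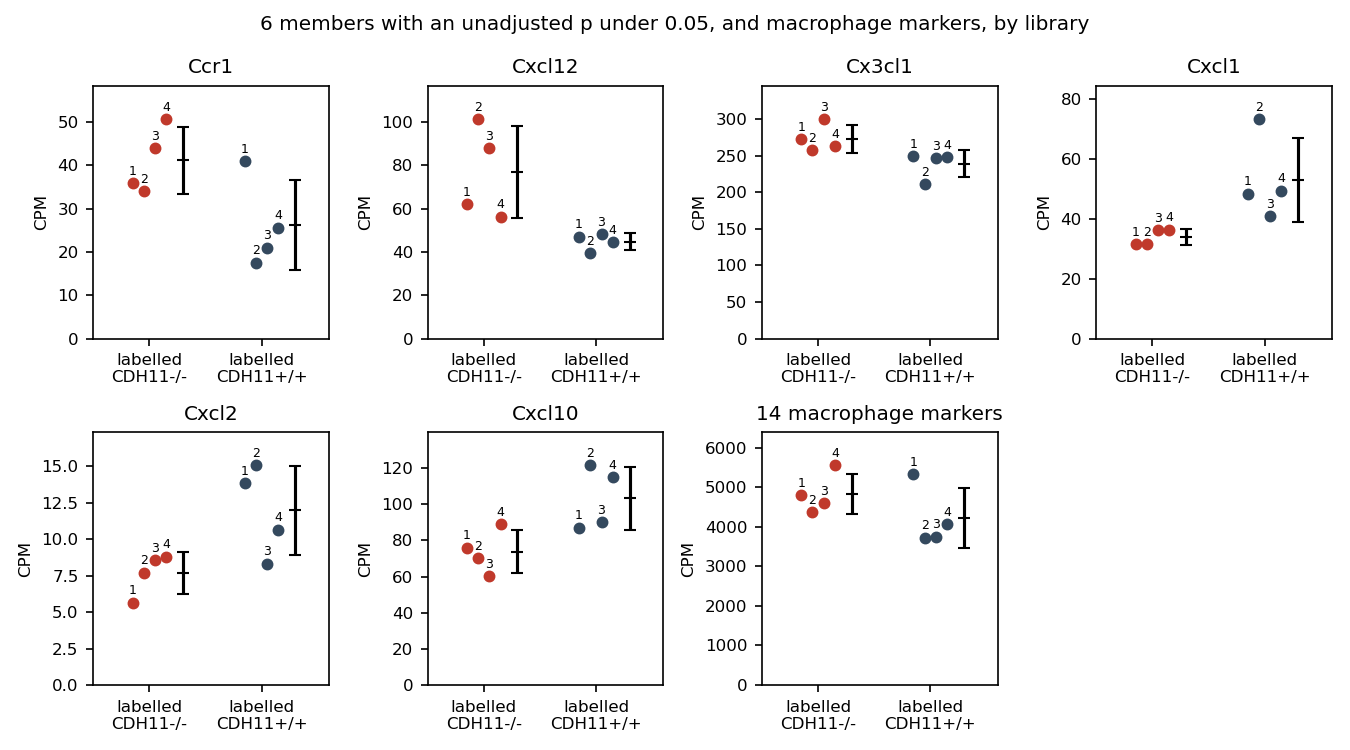
CPM in each library (points, numbered by replicate) with mean ± SD (bars) for 6 members with an unadjusted p under 0.05 and for the sum of 14 macrophage markers, libraries labelled CDH11-/- left of those labelled CDH11+/+. CDH11+/+ replicate 1 lies at 41.1 CPM for Ccr1 and 5327 CPM for the macrophage markers, above the other 3 libraries of its label each time.

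Ccl3, Ccl4, Ccl5, Ccl6 and Ccl9, ligands of macrophages and T cells, lie in a cluster on chromosome 11 (83525778 to 83664683) and gave mixed values. Ccl5 had 41.6, 48.7, 37.9 and 58.0 CPM in replicates 1 to 4 labelled CDH11-/-, against 48.5, 56.4, 71.5 and 56.7 CPM in replicates 1 to 4 labelled CDH11+/+. The groups overlapped, and the log2 difference was -0.33 ± 0.15 (SE, edgeR adjusted p = 0.369). Ccl4 was low, at 1.35 ± 0.583 CPM in libraries labelled CDH11-/- and 2.20 ± 0.564 CPM in libraries labelled CDH11+/+ (SD, n = 4 each). On the log2 scale Ccl4 stood at -0.72 ± 0.34 and Ccl3 at 0.37 ± 0.34 (SE). Ccl6 and Ccl9, mouse ligands of Ccr1, had 0.16 ± 0.21 and 0.25 ± 0.22 (log2, SE). Of these 5 ligands, 0 reached an unadjusted p under 0.05.

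The monocyte-attracting ligands of Ccr2 likewise did not pass. Ccl2, the main monocyte chemokine, averaged 26.5 ± 4.77 CPM in libraries labelled CDH11-/- and 29.1 ± 5.59 CPM in libraries labelled CDH11+/+ (log2 fold change -0.13 ± 0.15, SE). Ccl7 was at 0.18 ± 0.23, and Ccl12 at 0.48 ± 0.22 (log2, SE, edgeR adjusted p = 0.355). Ccl12 had 12.6, 12.7, 12.5 and 21.1 CPM in the libraries labelled CDH11-/-, against 13.9, 8.89, 8.15 and 11.2 CPM in those labelled CDH11+/+, so CDH11-/- replicate 4 and CDH11+/+ replicate 1 were the high ones. Ccl8 and Ccl1, ligands of Ccr8, had log2 fold changes of 0.14 ± 0.20 and 0.16 ± 0.31 (SE). The eosinophil-attracting Ccl11 was near 1 CPM, and Ccl24 had 22 counts in all.

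Cx3cl1, Ccl22 and Ccl17 lie within 10 Mb of Cdh11 on chromosome 8, ending 7.85, 7.88 and 7.82 Mb before its start. Cx3cl1 (94772009 to 94782427, plus strand), which tethers Cx3cr1-bearing monocytes and is made by endothelium and tubule cells, had 272.6, 257.9, 300.7 and 263.6 CPM in replicates 1 to 4 labelled CDH11-/-. In replicates 1 to 4 labelled CDH11+/+ it had 250, 211.5, 246.7 and 248.3 CPM. The groups did not overlap, but the difference was small, with a log2 value of 0.20 ± 0.08 (SE, edgeR adjusted p = 0.271). Ccl22 and Ccl17, dendritic cell ligands of Ccr4, had log2 fold changes of -0.29 ± 0.26 and -0.23 ± 0.31 (SE). Ccl22 had 5.44, 6.33, 6.81 and 13.3 CPM in replicates 1 to 4 labelled CDH11-/-, against 10.2, 8.89, 8.54 and 11.1 CPM in replicates 1 to 4 labelled CDH11+/+. Ccl17 had 5.10, 7.24, 5.23 and 12.1 CPM under the mutant label, against 11.5, 5.55, 9.49 and 8.02 CPM under the wild-type label. CDH11-/- replicate 4 was the highest of all 8 libraries for both, and the groups overlapped. Of 185 genes tested in that window, Cdh11 aside, 1 passed (0.541%) and 16.8% had an unadjusted p under 0.05, beside 0.719% and 14.1% of all genes.

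Ligands of epithelial surfaces did not separate the labels. Ccl28, which draws Ccr10-bearing plasma cells, varied widely, with 16.6, 48.7, 25.6 and 23.4 CPM in the libraries labelled CDH11-/-, against 8.12, 28.0, 29.0 and 16.4 CPM in those labelled CDH11+/+. Cxcl14 averaged 95.5 ± 11.7 CPM in libraries labelled CDH11-/- and 81.4 ± 31.7 CPM in libraries labelled CDH11+/+ (SD, n = 4 each), and Cxcl16 averaged 269.3 ± 30.9 CPM in libraries labelled CDH11-/- and 265.3 ± 27.8 CPM in libraries labelled CDH11+/+. The log2 fold change of Cxcl16 was 0.02 ± 0.10 (SE, edgeR adjusted p = 0.946), a difference smaller than its error. Ccl20 (ligand of Ccr6), Ccl25 (ligand of Ccr9), Ccl27a and Cxcl17 had log2 fold changes between -0.19 and 0.11. Ccl25 hardly varied, at 9.28 ± 0.741 CPM in libraries labelled CDH11-/- and 9.17 ± 0.129 CPM in libraries labelled CDH11+/+.

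Receptors of lymphocytes and dendritic cells did not pass either. Xcr1, which marks cross-presenting dendritic cells, had 5.10, 6.47, 4.86 and 10.1 CPM in the libraries labelled CDH11-/-, against 4.98, 4.03, 5.85 and 3.86 CPM in those labelled CDH11+/+ (log2 fold change 0.49 ± 0.25, SE). Its ligand Xcl1 was at 0.07 ± 0.31 (log2, SE). Ccr9 did not overlap, at 3.19 ± 0.293 CPM in libraries labelled CDH11-/- and 2.45 ± 0.317 CPM in libraries labelled CDH11+/+ (log2 fold change 0.37 ± 0.19, SE, edgeR adjusted p = 0.416); its exons overlap 3 other gene models, Slc6a20a among them. Cxcr6, Ccr8, Ccr4, Ccr7 and Cxcr5 had log2 fold changes from 0.00 to 0.30, and Cxcr4 had -0.23 ± 0.23 (SE). The scavengers Ackr3 and Ackr2 had -0.14 ± 0.10 and 0.49 ± 0.38 (log2, SE).

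Many of these members were highest in CDH11-/- replicate 4. It held the highest CPM of the 8 libraries for 19 of the 48 members tested (39.6%) and for 8 of the 14 receptors, while it was highest for 18.2% of all genes tested. The same library had the highest summed T cell markers (225.4 CPM, with 147.0 to 171.0 CPM in the other 3 of its label) and dendritic cell markers (205.4 CPM, with 135.5 to 144.9 CPM in the other 3). Of the 8 libraries it was highest for macrophage (5547 CPM), fibroblast and mural (1996 CPM) and B cell markers (23.6 CPM). It was lowest of the 8 for proximal tubule (1474 CPM), thick ascending limb (1718 CPM) and collecting duct markers (364.3 CPM). It also stood apart on a list of 5 lymph node and fat genes, at 8.03 CPM, where the other 3 of its label had 2.82 to 3.10 CPM and those labelled CDH11+/+ had 2.13 to 3.14 CPM. Fat genes made that difference: Adipoq had 24 counts, Plin1 32 and Cidec 22 in CDH11-/- replicate 4, and 0 to 2, 0 to 6 and 0 to 8 counts in the other 7 libraries. The follicle gene Cr2 had 19 counts in it and 14 to 41 in the others. The part of these cells in the chemokine values of that library was not tested. Libraries labelled CDH11+/+ had 136.5 to 175.2 CPM for the T cell list and 131.4 to 163.5 CPM for the dendritic cell list. Over the 48 members the median log2 fold change was 0.13, and over all genes tested it was -0.01. Without CDH11-/- replicate 4 the median of the members was 0.02. That library was picked because it was so often the highest, so a lower median without it was largely set by that choice. With all 8 libraries kept, the median of the members was 0.02 with 1 surrogate variable and 0.04 with limma-voom. For the 14 receptors of both kinds it was 0.28 in the edgeR fit and 0.07 without that library. It was 0.26 with 1 surrogate variable and 0.14 with limma-voom.

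**Figure D4:**
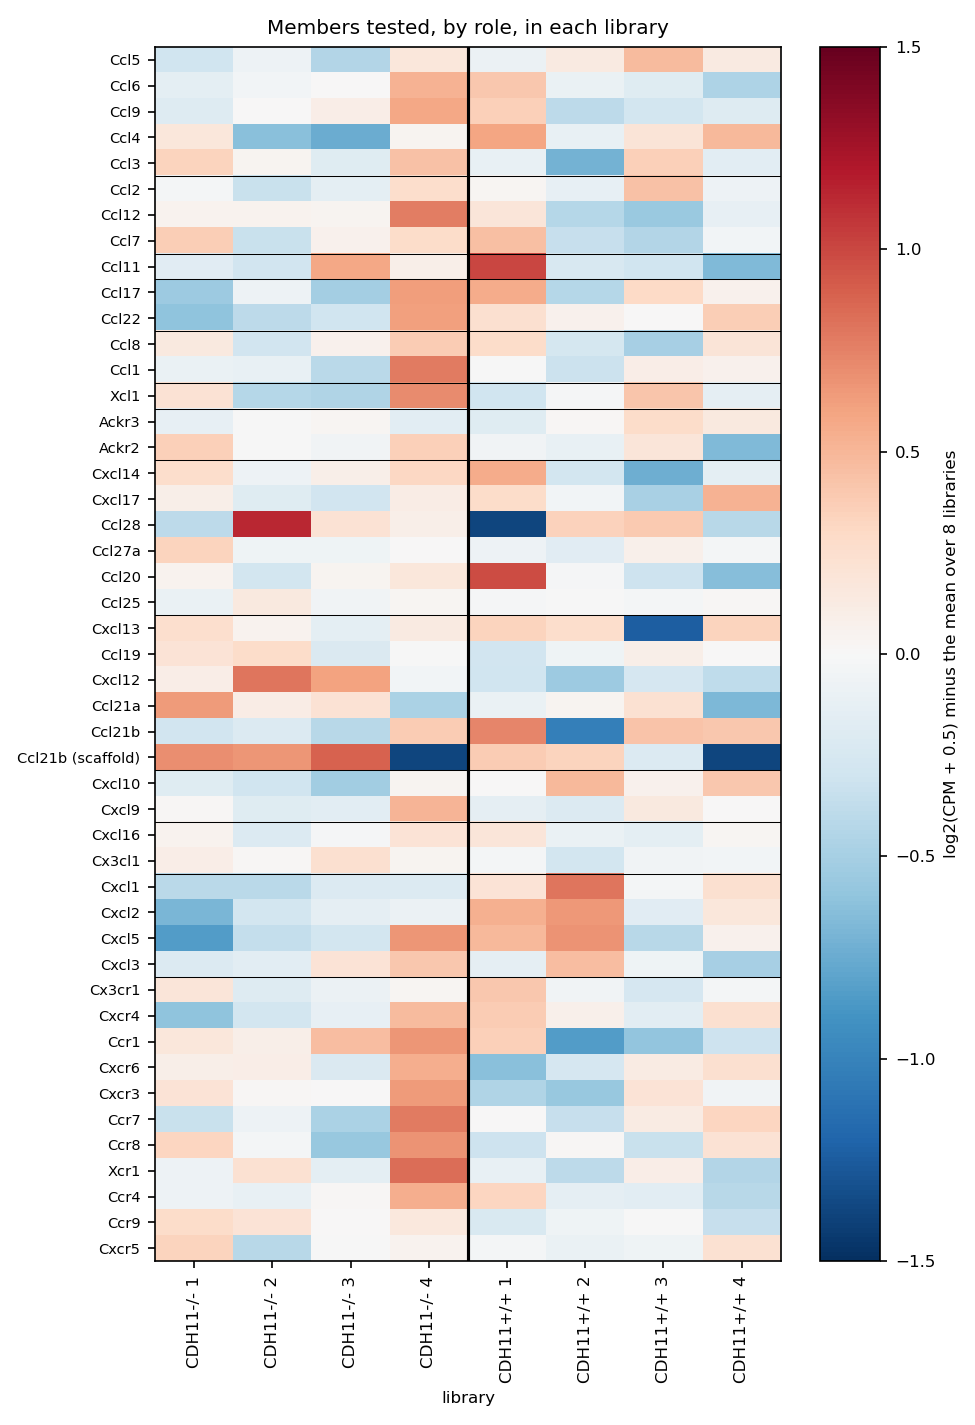
Log2(CPM + 0.5) of 47 members tested minus the gene's own mean, in columns by library (labelled CDH11-/- left, labelled CDH11+/+ right) and in rows grouped by role between thin lines. CDH11-/- replicate 4 holds the highest value in 19 of the 47 rows, and Cxcl1 is below its mean in all 4 libraries labelled CDH11-/-.

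The 10 members with too few counts to be tested were Ccr3, Ccr6, Ccr10, Cxcr2, Ackr4, Ccl24 and 4 scaffold copies (Ccl19, Ccl21a and both Ccl27 copies). Ccr10, a homing receptor of antibody-secreting cells, had 8, 12, 12 and 3 counts in replicates 1 to 4 labelled CDH11-/-, against 0, 0, 3 and 0 counts in replicates 1 to 4 labelled CDH11+/+. Of all its counts 35 were thus in libraries labelled CDH11-/- and 3 in a single library labelled CDH11+/+; the groups overlap at 3 counts, and its adjusted p was 0.153 in an edgeR fit without the filter. Plasma cell markers, a list of 5, summed to 206.9 to 263.4 CPM in libraries labelled CDH11-/- and 13.98 to 108.7 CPM in libraries labelled CDH11+/+, the highest of these being replicate 3, which held the 3 counts of Ccr10. Of the 4 plasma cell genes tested 0 passed (edgeR), but all 4 had positive log2 fold changes (median 1.06), 3 of them at an unadjusted p under 0.05. The part of plasma cells in the Ccr10 counts was not tested. Ccr3, the eosinophil receptor, had 31 counts in libraries labelled CDH11-/- and 9 in libraries labelled CDH11+/+.

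Genes that act with chemokine receptors likewise did not pass. Of 53 genes of receptor signalling, scavenging, processing and leukocyte adhesion, 52 were tested and 0 passed (edgeR). Log2 fold changes were positive in 38 of the 52 (median 0.07), where 47.8% of all genes tested were positive. An unadjusted p under 0.05 was reached by 5 with a higher value and 4 with a lower one, where 6.62% and 7.46% of all genes did so. The 4 of smallest p were Vcam1 (-0.46 ± 0.10, edgeR adjusted p = 0.0744) and Icam1 (-0.26 ± 0.06, edgeR adjusted p = 0.0845), the adhesion molecules that leukocytes grip on endothelium, then Pik3cg (0.43 ± 0.12) and Lyn (0.36 ± 0.11, log2, SE), kinases of leukocyte signalling. Icam1 averaged 172.9 ± 2.44 CPM in libraries labelled CDH11-/- and 207.3 ± 13.8 CPM in libraries labelled CDH11+/+ (SD, n = 4 each), without overlap. Vcam1 averaged 380.2 ± 40.1 CPM in libraries labelled CDH11-/- and 523.1 ± 68.2 CPM in libraries labelled CDH11+/+. It is also 1 of the 9 genes of the injured tubule list, and which cells carried its lower value was not tested.

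Whether members passed depended on the fit. Among the 4 members that DESeq2 called were Cxcl1, Cxcl10 and Cxcl12, and among the 4 of limma-voom with quality weights were Ccr1, Cxcl10 and Cxcl12. With 1 surrogate variable as a covariate, edgeR called 2 members, Ccr1 among them, in a fit that called 3.37% of all genes. With no filter on low counts, edgeR called 1 member, where 0.828% of all genes passed. The signs of Ccr1, Cxcl12, Cx3cl1, Cxcl1, Cxcl2 and Cxcl10 did not change in any of the 18 alternatives, while the adjusted p of Ccr1 ran from 0.00737 to 0.619 and that of Cxcl12 from 0.000877 to 0.331.

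**Figure D5:**
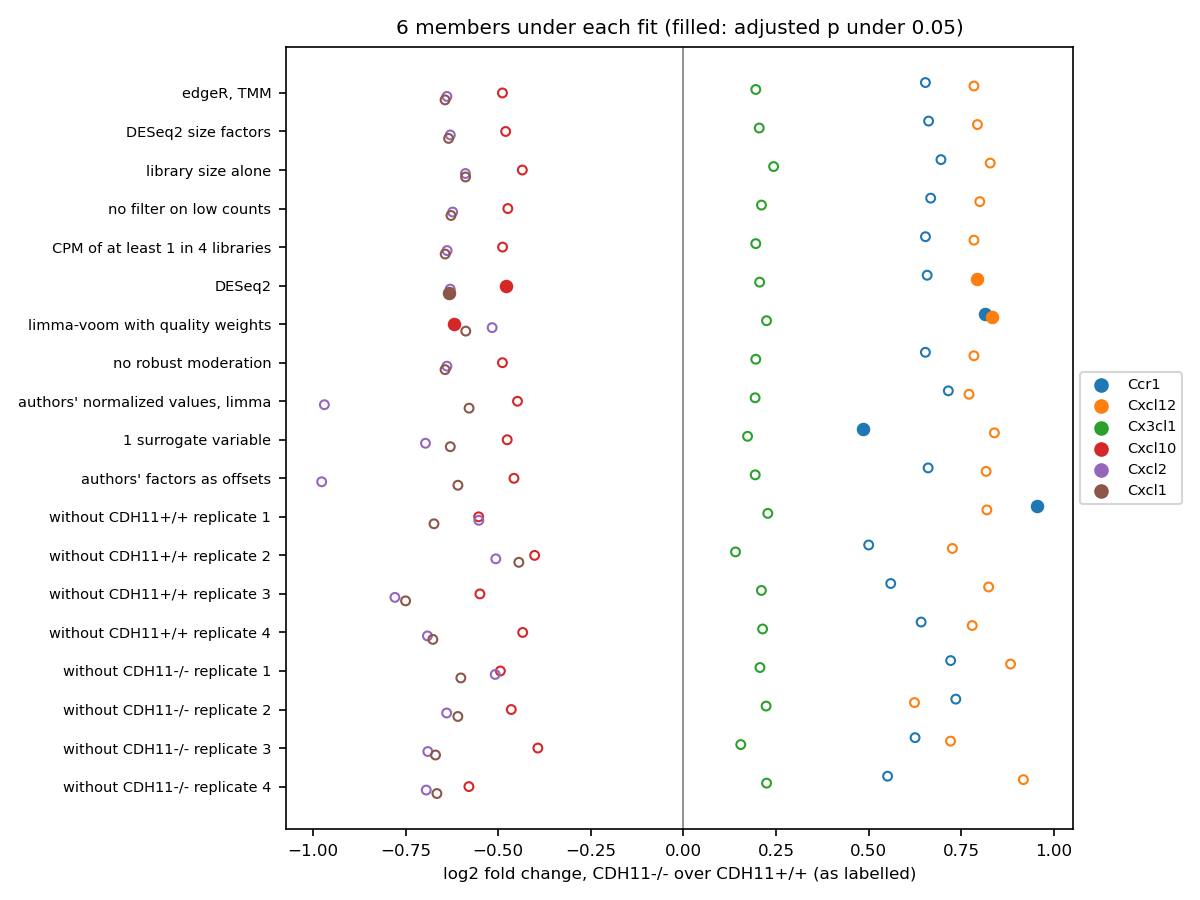
Log2 fold change (libraries labelled CDH11-/- over those labelled CDH11+/+) of 6 members in the edgeR fit and 18 alternatives, a row each, with filled points where the adjusted p was under 0.05. Ccr1 is filled in 3 alternatives, Cxcl12 and Cxcl10 in 2 each and Cxcl1 in 1, and no point crosses 0.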

How the data were processed

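RNA of whole kidney was sequenced from 8 mice, grouped by the genotype in their labels. Per the labels' protocols, the library kit keeps strand; the sources used here do not say if reads were counted by strand. The authors deposited whole-number counts per Ensembl gene and a signal table of normalized counts, made by the authors with a factor that differs between genes. The submitters' processing notes name mm10, DRAGEN and DESeq2 without versions. There were 0 columns of other samples. Results of 1 member are not reported here; it is included in counts and medians.

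Symbols, positions and exon lengths came from GENCODE M21 (GRCm38), which matched all 42256 identifiers. The test was edgeR's quasi-likelihood test (edgeR 4.0.16, R 4.3.3), with filterByExpr leaving 15852 genes, TMM factors, robust moderation and genotype as the only term, checked on simulated data. Benjamini-Hochberg adjustment ran over all genes tested, with a threshold of 0.05. A standard error (SE) is the absolute log2 fold change over the square root of F. CPM use library sizes after TMM. Replicates varied by 13.5% (edgeR's common value). Depth ran from 10675309 to 18539479 counts, so members under 1 CPM rest on few counts.

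The members, role groups, marker lists and tests were chosen with earlier results of these data known. Values in every library are given for members with an unadjusted p under 0.05, the 4 ligands and 4 receptors of highest level and members within 10 Mb of Cdh11; others shown so, such as Ccl12, Ccl28, Cxcl9, Xcr1, Ccr10 and Ccl21b, were chosen after their values were seen. In place of these choices the following were tried: scaling by DESeq2's size factors or by depth only; no low-count filter, or at least 1 CPM in 4 libraries; DESeq2 1.42.0; voom with quality weights (limma 3.58.1); moderation that is not robust; limma on the authors' values as log2(value + 1); a surrogate variable (sva 3.50.0); offsets from the authors' factors; and every library left out once. The labels do not say whether the mice shared litters or batches, so p-values measure the spread between these libraries.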

Additional observations from a re-analysis of the deposited data

Results flagged for a closer look

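In 6 of 96 groups of 4 libraries tested over the 48 members, the most extreme library lay far from the other 3 (Dixon's criterion at the 95% level, which picks out about 1 group in 20 by chance). In the libraries labelled CDH11-/-, Ccl12 was at 21.1 CPM in replicate 4 and at 12.5 to 12.7 CPM in the other 3. Ccl27a was at 13.4 CPM in replicate 1 and at 10.1 to 10.6 CPM in the others. Ccr4 was at 2.12 CPM in replicate 4 and at 1.16 to 1.32 CPM in the others. In those labelled CDH11+/+, Ccl11 was at 2.31 CPM in replicate 1 and at 0.385 to 0.684 CPM in the others. Cx3cl1 was at 211.5 CPM in replicate 2 and at 246.7 to 250 CPM in the others, and Cxcl13 at 12.6 CPM in replicate 3 and at 36.5 to 38.4 CPM in the others.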

How the results depend on the processing

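The count of 114 genes past the threshold (59 higher and 55 lower) became 208 without the filter, 515 with DESeq2, 685 with limma-voom, 49 with limma on the authors' normalized values, 535 with 1 surrogate variable and 50 with the authors' factors as offsets. It ran from 26 to 1004 when a library was left out, the highest without CDH11+/+ replicate 1. The count of 0 members became 1 without the filter, 4 with DESeq2, 4 with limma-voom and 2 with 1 surrogate variable, 1 at an adjusted p under 0.1, and 0 to 2 when a library was left out; it was 0 under the other settings, symbols that end in the number included. The cause of these differences was not tested. Over the 48 members tested, 16 changed sign under at least 1 alternative, all with a log2 fold change of at most 0.30 in size: 10 with limma-voom, 7 without CDH11-/- replicate 4, 6 with 1 surrogate variable and 0 to 5 under each other setting. Among the 4 ligands and 4 receptors of highest level these were Ccl8 (-0.0171 with 1 surrogate variable), Cxcl16 (-0.0629 with 1 surrogate variable, and -0.0341 to 0.0997 with a library left out) and Cx3cr1 (0.0063 with limma-voom, and -0.1364 to 0.1043 with a library left out, the highest without CDH11+/+ replicate 1). The median of the members ran from 0.02 to 0.20 and that of all genes from -0.01 to 0.04. No paired analysis was possible because replicates were numbered in accession order and no label ties equal numbers of the genotypes to a litter, batch or day. Depth limits the 10 members left untested, with at most 55 counts each.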

Other observations

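Members that lie side by side differed in the sign of their log2 fold changes: 3 of 4 were negative around Cxcl1 on chromosome 5 (median -0.55), while on chromosome 11 5 of 6 were positive from Ccl2 to Ccl1 and 3 of 5 from Ccl5 to Ccl4. Of the 3 on chromosome 8, 1 was positive. Neighbouring genes are not independent, and this grouping was chosen after the values were seen. With the authors' factors as offsets Cxcl2 was at -0.98 on the log2 scale, against -0.64 with TMM scaling.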
